A study of Mus musculus with 4 samples.

Results

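Small nucleolar RNAs (snoRNAs) were described in a comparison of haematopoietic stem cells (HSCs) from wild-type (WT) mice and from mice labelled Hif1a-/-. They were taken as the genes whose symbol starts with Snora or Snord and a digit, each read from the probe set of highest mean signal among those annotated with exactly 1 gene symbol. This gave 51 of the 19938 genes measured, of which 20 were H/ACA box snoRNAs (Snora) and 31 were C/D box snoRNAs (Snord).

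snoRNAs are short nucleolar RNAs that act within protein complexes to modify other RNAs, chiefly ribosomal RNA. H/ACA box snoRNAs guide the conversion of uridine to pseudouridine, and C/D box snoRNAs guide 2′-O-methylation. A few instead take part in cutting the ribosomal RNA precursor. Most vertebrate snoRNAs are cut out of introns of a host gene after splicing, so one transcript can yield both a spliced mRNA and a snoRNA. Many hosts encode ribosomal or other translation proteins, and their messages often start with a run of pyrimidines.

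The cells were sorted from bone marrow of C57BL/6 (B6) mice aged 8 weeks by a gate labelled Lin-c-Kit+Sca-1+, which takes in multipotent progenitors beside stem cells. There were 2 arrays of WT cells and 2 of cells labelled Hif1a-/-, with both genotypes numbered 1 and 2 and titled as biological replicates. Hif1a encodes the oxygen-regulated subunit of HIF-1. The labels state neither how the gene was deleted, nor in which cells, nor how many mice lie behind an array. All values are log2 signals of Affymetrix whole-transcript arrays, and p-values measure only the spread between these arrays. Signals of different probe sets depend on their probes, so the brightness of one snoRNA against another is not an order of abundance. In such bulk samples, fewer cells of a type and less RNA per cell cannot be told apart.

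RefSeq placed 47 of the 51 snoRNA genes inside exactly 1 other gene, 3 inside 2 genes and 1, Snord118, inside none. Of the 47, 37 lay in a protein-coding gene, 21 of them in a ribosomal protein gene, and 10 in a long non-coding RNA gene. H/ACA and C/D snoRNAs were spread alike over these kinds of host, with 8 of 20 and 13 of 31 in ribosomal protein genes. The start regions of 4 hosts are shown because their snoRNAs carry the widest or brightest patterns below. Ipo7 (importin 7) holds Snora23, Ncl (nucleolin) holds Snord82 and Snora75, Nop56 (a core protein of C/D complexes) holds Snord57, and Rplp2 (a protein of the ribosomal stalk) holds Snora52. Each line gives 80 bases, 50 before and 30 from the RefSeq start, on the gene's strand in GRCm38.p6, and capitals mark the longest run of C or T where it reaches 8 bases. The windows are chr7:110018265-110018344 (plus strand) for Ipo7, chr1:86359426-86359505 (minus strand) for Ncl, chr2:130274362-130274441 (plus strand) for Nop56 and chr7:141447601-141447680 (plus strand) for Rplp2.
Ipo7: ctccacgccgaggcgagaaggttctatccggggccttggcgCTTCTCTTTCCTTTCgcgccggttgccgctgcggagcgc
Ncl: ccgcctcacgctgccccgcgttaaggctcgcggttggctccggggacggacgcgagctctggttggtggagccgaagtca
Nop56: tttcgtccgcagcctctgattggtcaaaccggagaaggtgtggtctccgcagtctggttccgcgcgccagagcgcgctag
Rplp2: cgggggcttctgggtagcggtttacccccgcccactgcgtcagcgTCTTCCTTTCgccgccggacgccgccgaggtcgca

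The run was 15 bases long in Ipo7 and 10 in Rplp2, and only 4 and 5 bases in Ncl and Nop56. Searched on the gene's strand alone, a run of at least 8 bases lay in this window in 16 of the 29 host genes with a start in the reference (55.2%), against 9075 of 27025 genes (33.6%). It was present in 6 of 11 ribosomal protein hosts and in 10 of 18 other hosts. The match describes these letters and is no evidence of how the hosts are used.

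Some facts of the whole series bear on every value below. Hif1a itself had signals of 10.37 and 10.99 in WT, against 10.58 and 10.64 in Hif1a-/-, a difference of -0.08 (SE 0.24, limma adjusted p = 0.9998). Its signal therefore cannot serve as a check on which genotype an array holds. Array number separated the samples as well. The 12 neutrophil markers, all measured, had summed log2 signals of 128 and 126 in the arrays numbered 1. In the arrays numbered 2 they summed to 144 (WT) and 153 (Hif1a-/-), with 8 markers higher and 4 lower in Hif1a-/-. The 8 of 10 stem and progenitor markers that were measured summed to 88.5 and 87.3 in number 1, against 79.0 and 74.6 in number 2. Of these, 7 had lower means in number 2 and 1, Slamf1, had a higher mean. The lowest signal of any neutrophil marker was 9.48 (Mmp9) on WT array 2 and 10.92 (Mmp8) on the other array numbered 2. All 9 mast cell and basophil markers and all 5 measured monocyte and macrophage markers (of 6) also had higher means in number 2, 6 and 4 of them past the threshold. So had all 7 measured T and NK markers (of 8) and all 4 measured erythroid markers (of 7), 0 and 1 of them past it. B lineage markers (7 of 8 measured) instead went with genotype, with a median difference of 0.99 and 7 of 7 higher means in Hif1a-/-. The smallest difference was 0.10 (Ms4a1). Hif1a-/- was higher for 7 of 7 in number 1 and for 6 of 7 in number 2, where Cd79b was lower (-0.17). Summed signals were 64.4 and 64.2 in WT against 71.4 and 69.3 in Hif1a-/-. By limma 0 passed, though 5 had an unadjusted p under 0.05. Of these marker genes, 8 of the 12 neutrophil and 5 of the 8 progenitor genes differed between the numbers by limma at an adjusted p under 0.05. What part the cell mixture has in the snoRNA values was not tested.

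**Figure D1:**
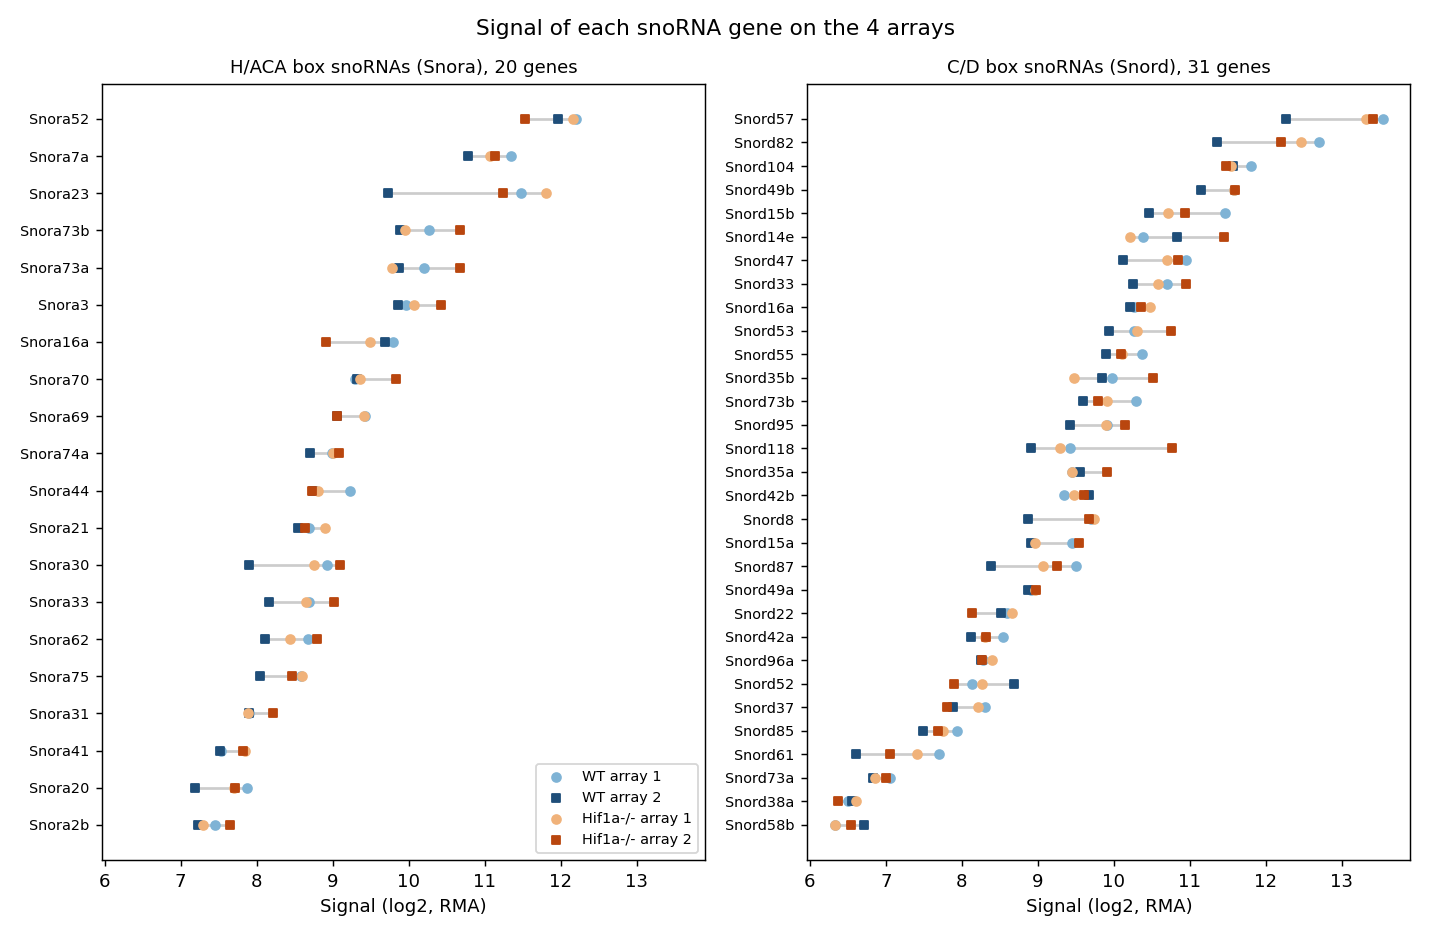
Signal of each snoRNA gene (log2, RMA) on each of the 4 arrays, with H/ACA genes in one panel and C/D genes in the other, ordered by mean; grey lines join the lowest and highest array. WT array 2 (dark blue squares) is the lowest point for 35 of the 51 genes.

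snoRNA genes were mostly bright on these arrays. Their mean signals ran from 6.48 for Snord58b to 13.13 for Snord57, with a median of 9.45, and 35 of the 51 lay above the median of all genes, 8.56. The class medians were 8.91 for H/ACA and 9.59 for C/D snoRNAs. The brightest H/ACA genes were Snora52, Snora7a and Snora23, and the brightest C/D genes were Snord57, Snord82 and Snord104. Snora20 and Snora2b were the dimmest of the H/ACA class, and Snord38a and Snord58b of the C/D class. Snord38a gave 6.50 and 6.55 in WT and 6.60 and 6.37 in Hif1a-/-, and Snord58b gave 6.33 and 6.71 against 6.33 and 6.54. Across the 51 genes the arrays numbered 1 were the most alike (Pearson r = 0.990, across genes, which are not replicates). WT array 2 and Hif1a-/- array 2 were the least alike, with r = 0.946, although over all genes that pair had r = 0.983. That pair was also the least alike in the H/ACA class (r = 0.912). In the C/D class the 2 WT arrays were the least alike, with r = 0.958, against 0.962 for the arrays numbered 2.

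No snoRNA gene differed between the genotypes past the threshold. With limma and Benjamini-Hochberg adjustment over all genes, 0 of 51 had an adjusted p under 0.05, the smallest was 0.9998, and the share of all genes called was 0%. Without adjustment, 1 of 51 had a p under 0.05, against 0.727% of all genes. The median standard error of a genotype difference was 0.23 for snoRNAs and 0.15 for all genes, so differences of the size seen could not be resolved with 2 arrays a group.

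The 1 gene was Snora41, an H/ACA snoRNA within Eef1b2, which encodes a translation elongation factor subunit. It gave 7.53 and 7.52 in WT and 7.85 and 7.82 in Hif1a-/-. Both Hif1a-/- arrays were above both WT arrays, and the replicates of each genotype lay close together. The difference was 0.31 (SE 0.11, 95% interval 0.02 to 0.60, limma unadjusted p = 0.0431, adjusted p = 0.9998).

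Both Hif1a-/- arrays lay above both WT arrays for 7 snoRNAs (13.7%), against 16.1% of all genes. These were Snora3, Snora41, Snora70, Snora74a, Snord16a, Snord49a and Snord53. Both lay below for 2, Snora16a and Snord104, against 8.33% of all genes. Both shares were below the background. Snora3, in the ribosomal protein gene Rpl27a, gave 9.97 and 9.86 in WT and 10.07 and 10.43 in Hif1a-/- (difference 0.33, SE 0.17). Snord53, in Wdr43, which encodes a protein of small-subunit assembly, gave 10.27 and 9.94 against 10.30 and 10.76 (difference 0.43, SE 0.23). Its arrays numbered 1 almost coincided, and the gap came from those numbered 2. Snora16a, in the non-coding gene Snhg12, gave 9.79 and 9.69 in WT and 9.50 and 8.91 in Hif1a-/- (difference -0.54, SE 0.23). It had the lowest genotype difference of the 51.

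The median genotype difference was 0.20 for H/ACA snoRNAs, with 16 of 20 higher in Hif1a-/-, and 0.08 for C/D snoRNAs, with 20 of 31 higher. Over all genes it was 0.00, and 50.6% of them were higher. These medians rested on WT array 2. Without it they were 0.03 for H/ACA and -0.05 for C/D snoRNAs, so the sign of the C/D median turned.

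In the arrays numbered 1, Hif1a-/- was lower than WT for 34 of 51 snoRNAs (66.7%), against 44.7% of all genes. The medians were -0.04 for H/ACA and -0.13 for C/D snoRNAs. In the arrays numbered 2, Hif1a-/- was higher for 41 of 51, which were 17 of 20 H/ACA and 24 of 31 C/D genes. There the medians were 0.42 and 0.36. All genes had medians of 0.02 and 0.01, and 51.0% were higher in number 2. A difference above 0.5 in number 2 was found for 21 snoRNAs (41.2%), against 2.90% of all genes, and these were 9 H/ACA and 12 C/D genes. In number 1, 2 snoRNAs differed by over 0.5 either way, against 1.24% of all genes. With 4 arrays the interaction of genotype and number leaves no residual degrees of freedom, so the change between numbers was not tested.

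**Figure D2:**
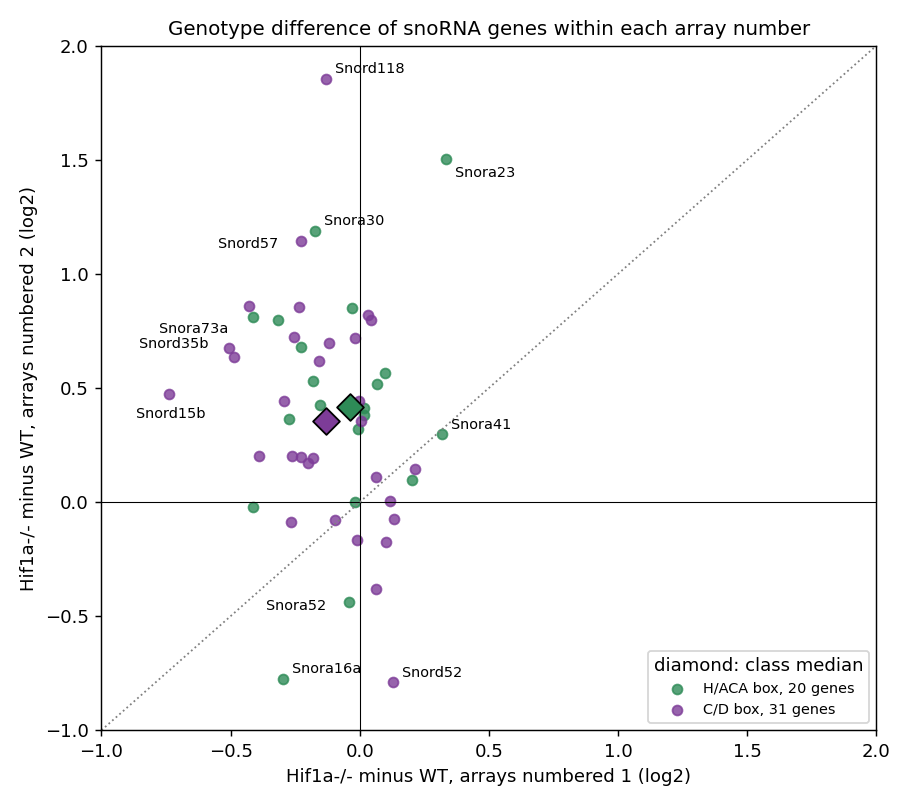
Each point is a snoRNA gene, with Hif1a-/- minus WT (log2) in the arrays numbered 1 on the horizontal axis and in those numbered 2 on the vertical axis; diamonds are class medians and the dotted line marks equal differences. Most points lie above the dotted line and the diamonds nearly coincide, at 0.42 for H/ACA and 0.36 for C/D on the vertical axis.

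Of the 51 genes, 28 were lower in Hif1a-/- in number 1 and higher in number 2 (54.9%, against 23.6% of all genes). A further 13 were higher in both, 6 lower in both, and 4, all C/D, were higher and then lower. The widest change was in Snord118, also known as U8, a C/D RNA needed for processing the large-subunit ribosomal RNAs rather than for modification. It gave 9.42 and 8.91 in WT and 9.29 and 10.77 in Hif1a-/-. The array labelled Hif1a-/- and numbered 2 stood apart from the other 3, and the difference within number 2 was 1.86. Over both numbers it was 0.86 (SE 0.56, 95% interval -0.70 to 2.43).

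Snora23 and Snora30 had the highest H/ACA differences in number 2, 1.51 and 1.19. Snora23, in Ipo7, gave 11.47 and 9.73 in WT and 11.81 and 11.24 in Hif1a-/-. WT array 2 was far below the other 3 arrays, so the genotype difference of 0.92 had an SE of 0.66 and a 95% interval of -0.91 to 2.74. Snora30, in Srcap, a chromatin remodelling gene, gave 8.93 and 7.91 against 8.76 and 9.10. Here too WT array 2 was the low one, and without it the difference was -0.0042 in place of 0.51.

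In the C/D class Snord57 and Snord87 were also lowest in WT array 2. Snord57, the brightest of the 51, gave 13.54 and 12.26 in WT and 13.32 and 13.41 in Hif1a-/-. Snord87 gave 9.50 and 8.39 against 9.07 and 9.25. For both, 3 arrays lay together and WT array 2 lay below. Snora73a and Snora73b, a pair also known as U17 that acts in cutting the small-subunit precursor and shares the host Snhg3, had another order. Snora73a gave 10.20 and 9.87 against 9.79 and 10.68, and Snora73b gave 10.27 and 9.88 against 9.96 and 10.68. For this pair the array labelled Hif1a-/- and numbered 2 was the highest. As close copies they may share probes, so which of them carries a value is uncertain.

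Not every snoRNA was higher in Hif1a-/- in number 2. Snord52 gave 8.13 and 8.69 in WT and 8.26 and 7.90 in Hif1a-/-, with a difference of -0.79 in number 2. Snora52 gave 12.20 and 11.97 against 12.16 and 11.53. Snord22, or U22, needed in frogs for making small-subunit ribosomal RNA, gave 8.60 and 8.52 against 8.66 and 8.14. In these 3 the array labelled Hif1a-/- and numbered 2 was the lowest.

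Smaller differences of the same kind were found among both classes. Snora33, in the ribosomal protein gene Rps12, gave 8.69 and 8.17 in WT and 8.66 and 9.02 in Hif1a-/- (difference 0.41, SE 0.25). Snord95, in Rack1, which encodes a scaffold protein of the small ribosomal subunit, gave 9.91 and 9.43 against 9.90 and 10.15 (difference 0.35, SE 0.22). In both, the arrays numbered 1 nearly coincided and those numbered 2 lay on either side of them. Snora70, in Rpl10, gave 9.29 and 9.32 against 9.36 and 9.84, so that its array 2 labelled Hif1a-/- alone stood out. Snora7a gave 11.35 and 10.78 against 11.07 and 11.14, and Snora20, in Tcp1, gave 7.88 and 7.19 against 7.70 and 7.72. For these last 2 it was WT array 2 that stood low.

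Other named genes had narrow ranges or mixed orders. Snord16a, in Rpl4, gave 10.26 and 10.21 in WT and 10.48 and 10.35 in Hif1a-/- (difference 0.18, SE 0.12). Snord104 gave 11.81 and 11.56 against 11.54 and 11.47 (difference -0.18, SE 0.14). In both, the genotypes did not overlap but lay close together. Snora44, which shares Snhg12 with Snora16a, gave 9.22 and 8.75 against 8.81 and 8.73, with WT array 1 above the other 3. Snora2b gave 7.46 and 7.22 against 7.30 and 7.65. Snord35b gave 9.97 and 9.84 against 9.47 and 10.52, with both extremes in Hif1a-/-.

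snoRNAs that share a host did not always share an order of arrays. Of 10 hosts that hold 2 measured snoRNAs, the ribosomal protein gene Rpl23a held Snord42a, with 8.54 and 8.12 in WT and 8.31 and 8.31 in Hif1a-/-, and Snord42b, with 9.34 and 9.68 against 9.47 and 9.60. WT array 2 was the lowest array for the first and the highest for the second. In Ncl, both Snord82 and Snora75 were lowest in WT array 2, by 1.34 and 0.54 below WT array 1. In Rpl13a, whose intronic C/D RNAs have been linked to metabolic stress in rodent cells, Snord33 gave 10.70 and 10.26 against 10.58 and 10.96, and Snord35a gave 9.45 and 9.55 against 9.45 and 9.91. Only Snord33 was lowest in WT array 2. In Rps3, Snord15a gave 9.45 and 8.91 against 8.96 and 9.54, and Snord15b gave 11.46 and 10.46 against 10.72 and 10.93. Both were lower in Hif1a-/- in number 1 and higher in number 2, and Snord15b had the lowest number 1 difference of the 51, -0.74.

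Between the array numbers, 0 of 51 snoRNAs had an adjusted p under 0.05 by limma, against 6.74% of all genes, and the smallest was 0.0910. Without adjustment, 7 had a p under 0.05 (Snora52, Snora69, Snord14e, Snord37, Snord58b, Snord61 and Snord82), against 19.5% of all genes. Both arrays numbered 2 lay above both numbered 1 for 5 snoRNAs (9.80%), against 20.4% of all genes, and below for 15 (29.4%), against 27.2%. Snord14e, one of the U14 RNAs, which pair with small-subunit precursor RNA, lies in Hspa8, a chaperone gene. It gave 10.38 and 10.22 in the arrays numbered 1 and 10.82 and 11.44 in those numbered 2 (difference 0.84, SE 0.22, limma unadjusted p = 0.0091). Snord61, in Rbmx, gave 7.70 and 7.41 against 6.61 and 7.06 (difference -0.72, SE 0.19). Snora69 gave 9.43 and 9.41 against 9.06 and 9.06, with the same gap in both genotypes. The class medians were -0.15 for H/ACA and -0.12 for C/D snoRNAs. Without WT array 2 they were 0.11 and -0.02, and without array 2 labelled Hif1a-/- they were -0.26 and -0.34.

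The count of 0 depended on which arrays entered. Without the array 2 labelled Hif1a-/-, 24 of 51 snoRNAs passed at an adjusted p under 0.05, 21 lower and 3 higher in number 2, against 23.1% of all genes. Without WT array 2, 15 passed, 9 higher and 6 lower, against 23.4% of all genes. In each case 1 array numbered 2 stood against the close pair numbered 1, and its spread was assumed to match that pair's. Snord118 passed in both, at -0.44 with WT array 2 alone and at 1.41 with the Hif1a-/- array alone. These 2 comparisons share the arrays numbered 1. Within WT, 43 of 51 snoRNAs were lower in number 2 (84.3%), against 52.5% of all genes. The medians were -0.35 for H/ACA and -0.42 for C/D snoRNAs. Within Hif1a-/-, 30 of 51 snoRNAs were higher in number 2 (58.8%), against 44.6% of all genes, with medians of 0.07 and 0.01.

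WT array 2 held the lowest signal for 35 of 51 snoRNAs (68.6%), 14 H/ACA and 21 C/D genes, against 31.8% of all genes. Array 2 labelled Hif1a-/- held the highest for 20 (39.2%, against 27.1% of all genes) and WT array 1 for 19 (37.3%, against 23.6%). Under quantile normalization, cyclic loess and median centring the count lowest in WT array 2 was 35, 32 and 31. WT array 2 was also the lowest for 184 of 291 microRNA genes (63.2%), whose median genotype difference was 0.00 in number 1 and 0.20 in number 2. These genes were mostly dim, with a median signal of 6.88 and 51 of 291 above the median of all genes. Whether their probe sets read the mature short RNA was not tested. Without the dimmest 40% of genes, WT array 2 was the lowest for 65 of the 78 microRNA genes left (83.3%). The same held for 29 of the 41 snoRNAs left (70.7%) and for 24.4% of all genes left. WT array 2 was the lowest for 1 of 57 ribosomal protein genes as deposited, but for 16 of 57 under cyclic loess.

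**Figure D3:**
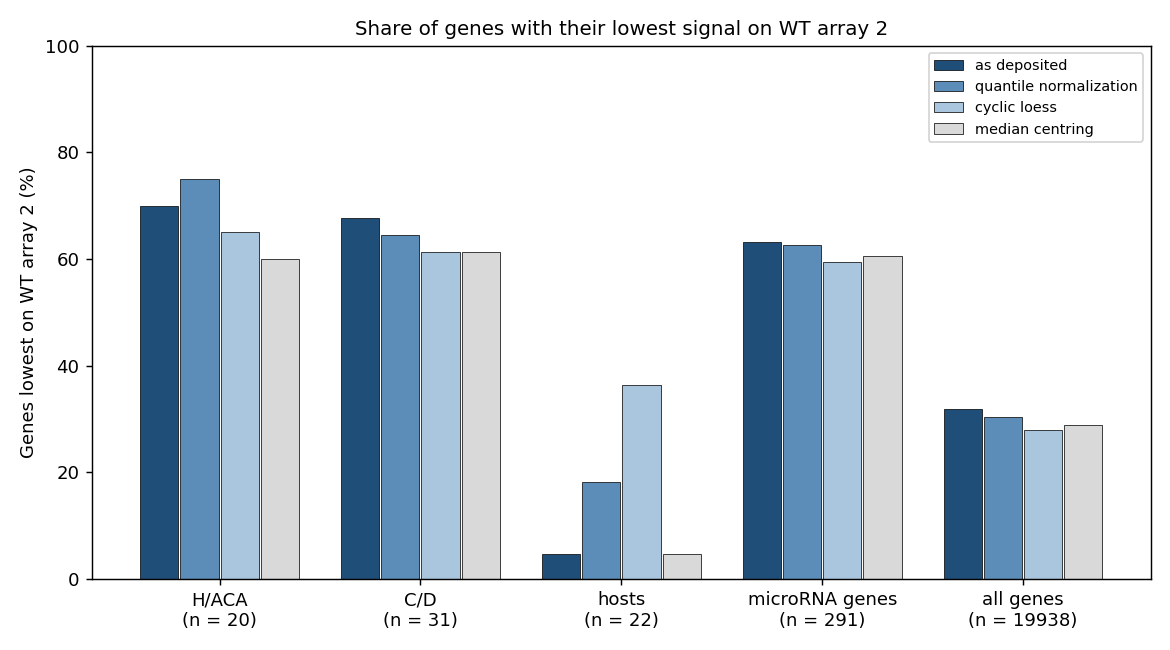
Bars give the percent of genes in each set whose lowest signal among the 4 arrays was on WT array 2, for the deposited values and 3 other scalings. Both snoRNA classes and the microRNA genes lie near or above 60% under each scaling, while the host genes move from 4.55% as deposited to 36.4% under cyclic loess.

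The signal of a snoRNA was next set against that of the gene that contains it, for the 26 snoRNAs with 1 measured host (22 hosts). Whole-transcript arrays can detect both a mature snoRNA and an intron of its host, and these cannot be told apart here. In WT, array 2 minus array 1 had a median of -0.42 for the snoRNAs and 0.03 for the hosts, and the snoRNA value lay below its host's in 22 of 26 pairs. In the arrays numbered 2, Hif1a-/- minus WT had a median of 0.46 for the snoRNAs and -0.22 for the hosts, with the snoRNA below its host in 1 of 26. The host values depend on scaling. Their WT median turned to -0.12 under quantile normalization and -0.16 under cyclic loess, and their number 2 genotype median was then -0.10 and -0.02. Across the pairs the 2 differences were barely related in either comparison (Pearson r = 0.07 in each, 26 pairs, some sharing a host).

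**Figure D4:**
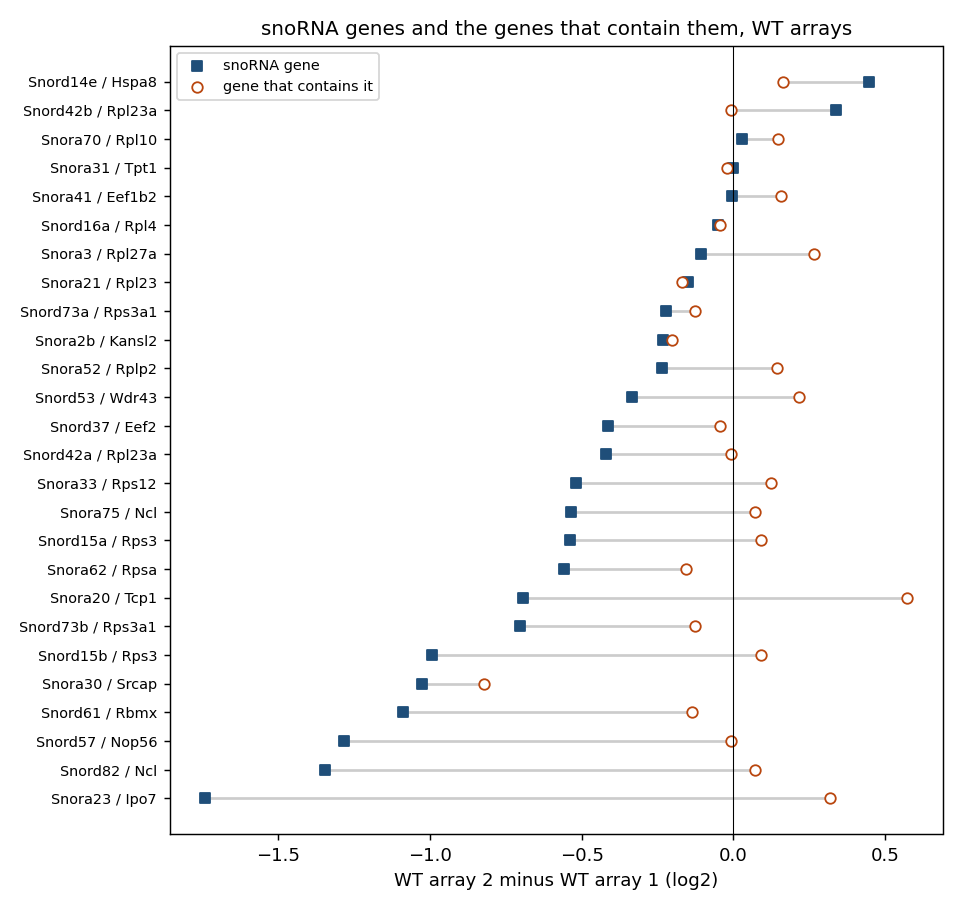
WT array 2 minus WT array 1 (log2) for 26 snoRNA genes (filled squares) and the genes that contain them (open circles), ordered by the snoRNA value. Grey lines join each pair, and the snoRNA lies to the left of its host in 22 of 26 with the deposited values; the host median of 0.03 turned to -0.16 under cyclic loess.

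Ipo7 gave 11.44 and 11.76 in WT and 11.56 and 11.38 in Hif1a-/-, and so was highest on the array where its Snora23 was lowest. Ncl gave 12.63 and 12.70 against 12.62 and 12.67, a range far narrower than that of its Snord82, with 12.70 and 11.35 against 12.46 and 12.21. Nop56 gave 12.35 and 12.34 against 12.49 and 12.05, with no low value on WT array 2. Srcap gave 11.89 and 11.07 against 11.71 and 11.36, and like its Snora30 was lower in WT array 2 than in WT array 1. The snoRNA and its host had the same sign of this WT difference in 13 of the 26 pairs. By kind of host, the median difference in number 2 was 0.20 for the 21 snoRNAs of ribosomal protein genes, 0.49 for the 16 of other coding genes and 0.05 for the 10 of non-coding genes.

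The proteins that bind and mature snoRNAs did not share the snoRNA pattern. The lists below were chosen from textbook knowledge, but with earlier results of these data known. Of their measured genes, 0 passed at an adjusted p under 0.05 for genotype. For the 6 H/ACA proteins (Dkc1, the pseudouridine synthase, Nhp2, Nop10, Gar1 and the assembly factors Naf1 and Shq1) the median genotype difference was -0.27, with 0.18 in number 1 and -0.71 in number 2. Dkc1 gave 10.80 and 11.16 in WT and 11.11 and 10.40 in Hif1a-/-. Naf1 gave 9.46 and 9.61 against 9.30 and 8.99 (difference -0.39, SE 0.16, limma unadjusted p = 0.0696). For 4 of 5 C/D proteins (Fbl, the methyltransferase, Nop56, Nop58 and Snu13) the median was -0.13, with 0.12 and -0.43 in numbers 1 and 2. Fbl gave 10.85 and 11.31 in WT against 10.94 and 11.14 in Hif1a-/-. WT array 2 was the lowest for 0 of these 10 genes, as deposited and under the 3 other scalings.

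C/D assembly factors (7 of 9 measured) had a median genotype difference of -0.28, and release and trimming factors (13 of 14) of -0.11. RNA polymerase I genes (15 of 18) had a median of -0.11, and nucleolar and small-subunit processome genes (28 of 28) of -0.24. In number 2 the 4 medians were -0.58, -0.36, -0.37 and -0.63, and each stayed negative under the 3 other scalings. Several were smaller under cyclic loess, where the RNA polymerase I genotype median was -0.02 (-0.15 in number 2), that of release and trimming factors -0.06, of C/D assembly factors -0.18 and of C/D proteins -0.05 (-0.20 in number 2). The 1 gene of these lists with an unadjusted p under 0.05 was Rrs1, a ribosome assembly factor, with 8.86 and 9.15 in WT and 8.57 and 8.17 in Hif1a-/- (difference -0.63, SE 0.20, limma adjusted p = 0.9998). A list of non-coding genes chosen as snoRNA hosts (10 of 24 measured) had a median genotype difference of 0.07, with 0.14 in number 2. WT array 2 was the lowest for 7 of the 10. The list also holds Mir17hg, a host of microRNAs rather than snoRNAs, which was among those 7. No non-coding gene that was the only host of a snoRNA here was among the genes measured. Gas5, a non-coding gene that holds several C/D snoRNAs, gave 12.11 and 11.55 in WT and 12.13 and 12.13 in Hif1a-/- (difference 0.30, SE 0.23). Its next brightest probe set gave 11.92 and 11.58 against 11.88 and 11.57, and so showed no such gap.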

How the data were processed

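RNA from 4 sorted samples was labelled with biotin after random-primed amplification, per the labels' protocols. Per the submitters' processing notes, the authors used RMA and Affymetrix Expression Console 1.1; the range of the deposited table shows a log2 scale. RMA brings arrays to a common distribution, so a shift shared by all genes would be removed. Extraction used a column kit, per the labels' protocols, and how well it kept short RNAs was not tested. The labels and processing notes name no genome build, and the GRCm38.p6 coordinates come from the reference.

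Of 35556 probe sets, 21789 had 1 gene symbol, 1621 several and 12146 none. The probe set of highest mean was used per gene, giving 19938 genes, and 0 columns belonged to other samples. The 51 members had 56 probe sets, and for Snora30 and Snord118 the pairs were identical. Another 41 snoRNA probe sets share a symbol with another gene and were left out. All 51 were matched to RefSeq (GRCm38.p6). Its table has no strand, so a host is a gene that contains the snoRNA. Sequences are RefSeq's.

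Genotype and array number were each fitted with limma 3.58.1 in R 4.3.3 (lmFit, eBayes, two-sided, all 4 arrays, no covariates), with Benjamini-Hochberg adjustment over all genes and a threshold of 0.05. The genotype fit was run on simulated data with independent noise on each array. The simulation left out the deviation shared by arrays of the same number. Alternatives were the number as a block (or genotype as a term), each array left out, quantile normalization, cyclic loess, median centring, probe sets averaged per gene, removal of the dimmest 40% of genes, and trend with robust eBayes.

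Members, lists and tests were chosen with earlier results of these data known. Named per class are the 3 brightest and 2 dimmest genes, the 3 per direction with the smallest genotype p and the largest number difference, and the 3 whose difference varied most between numbers. From each pathway list, the gene with the smallest p per direction was followed through the alternatives, and other list genes are given mainly as counts. Snora75, Snord15a, Snord15b, Snord33, Snord35a, Snord42a, Snord42b, Dkc1, Fbl, Mir17hg and genes in counts were named after their values were seen.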

Additional observations from a re-analysis of the deposited data

Results flagged for a closer look

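The genotype difference had opposite signs in the 2 array numbers for both snoRNA classes. For H/ACA snoRNAs the median of Hif1a-/- minus WT was -0.0358 in number 1 and 0.4186 in number 2. For C/D snoRNAs it was -0.1299 and 0.3559. With 1 array per genotype and number, the difference was not tested.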

How the results depend on the processing

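The count of snoRNAs called for genotype stayed at 0 under all 11 alternatives run. The number as a replicate block also gave 0 calls and the same medians, 0.20 for H/ACA and 0.08 for C/D snoRNAs. Arrays of the same number deviated together from their genotype means (r = 0.67 across 19938 genes), but there are only 2 pairs and the labels state no pairing. For the array number, leaving out 1 array gave 0 to 24 calls. The H/ACA number median then ranged from -0.26 to 0.11 and the C/D median from -0.34 to -0.0225, and the genotype medians from 0.03 to 0.34 and from -0.05 to 0.21. Scaling turned 2 genotype differences that lay near 0, Snora69 to 0.0453 under quantile normalization and 0.0381 under cyclic loess, and Shq1 to -0.0024 under median centring. Leaving out 1 array turned the sign of 22 of 40 named genotype differences and 4 of 14 number differences. In genotype the ranges were Snora44 from -0.46 to 0.0214, Snora69 from -0.20 to 0.18, Shq1 from -0.13 to 0.14, Snora20 from -0.17 to 0.52, Snora30 from -0.0042 to 1.02, Snora7a from -0.24 to 0.33, Snord57 from -0.18 to 1.1004, Snord58b from -0.27 to 0.10, Snord61 from -0.47 to 0.62, Snord82 from -0.36 to 0.98 and Snord87 from -0.34 to 0.77. Further ranges were Ttf1 from -0.0305 to 0.13, Snora2b from -0.0375 to 0.31, Snora52 from -0.56 to 0.0762, Snora73a from -0.25 to 0.65, Snora73b from -0.12 to 0.60, Snord14e from -0.38 to 0.84, Snord22 from -0.42 to 0.10, Snord35b from -0.44 to 0.61, Snord38a from -0.15 to 0.0779, Dancr from -0.16 to 0.0156 and Nop58 from -0.57 to 0.0476. For the array number they were Snora70 from -0.0059 to 0.51, Snora73a from -0.12 to 0.69, Snora73b from -0.23 to 0.57 and Snord118 from -0.44 to 1.41. Apart from the fewer arrays, the cause was not tested. The 14 genes named for the array number were picked by the size or p-value of that same contrast. Their number differences are therefore no separate check on it. With 2 arrays a group, the number of arrays limits what can be resolved.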

Other observations

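Among the 41 snoRNA probe sets that share a symbol with another gene, 24 belong to the Snord116 group, brain-enriched C/D RNAs of an imprinted cluster. They held only 7 distinct rows of values, with mean signals from 5.66 to 5.98, all below the median of all genes. Hif1a-/- was above WT for 24 of 24 in number 1 and for 0 of 24 in number 2. The other 17 held 14 distinct rows, with mean signals from 4.70 to 11.63. In number 2, 10 of the 14 distinct rows were higher in Hif1a-/-.

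Other small RNAs did not all follow the snoRNAs. Of 9 small nuclear, Y and vault RNA genes, 7 were higher in Hif1a-/- in number 2, with a median of 0.34, and 6 were lowest in WT array 2. Of 3 Cajal body RNAs, which are built like snoRNAs and guide changes in spliceosomal RNAs, 1 was higher in number 2, with a median of -0.34. That median was -0.14 under quantile normalization and -0.09 under cyclic loess. Like most snoRNAs, all 3 were lower in WT array 2 than in WT array 1, with a median of -0.64. Gas5 has 4 probe sets, whose WT array 2 signal was below WT array 1 in the brightest, at 11.55 and 12.11, and above it in the dimmest, at 8.67 and 8.26. The genotype gap of the brightest probe set was not seen in the next, with 11.92 and 11.58 in WT and 11.88 and 11.57 in Hif1a-/-.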
